A study of Mus musculus with 24 samples.

Results

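The excitatory synapse of the cortex is held together by scaffold proteins beneath the postsynaptic membrane and by adhesion proteins that span the cleft. Shank, Dlg, Dlgap and Homer proteins form the layers of the postsynaptic density, in which Dlg proteins hold glutamate receptors, Dlgap proteins join Dlg to Shank, and Homer ties Shank to metabotropic glutamate receptors. Neurexins on the axon bind neuroligins and Lrrtm proteins on the dendrite, Slitrk proteins bind axonal receptor phosphatases, and contactin-associated proteins (Cntnap) and CUB and Sushi domain proteins (Csmd) are further large proteins of the neuronal surface.

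The genes described here are 36 symbols from these families, chosen by name from the table of normalized counts: 3 Shank, 4 Dlg, 4 Dlgap and 3 Homer genes, 2 neurexins, 3 neuroligins, 4 Lrrtm, 5 Slitrk, 5 Cntnap and 3 Csmd genes. Dlg2 has a second entry of its own in the table, a processed transcript, so that the 36 symbols gave 37 of the 15456 table entries. All 37 passed the filter of a mean normalized count of at least 10, as did 14974 entries in all. Of the 37, 32 lie at the same GRCm38 position in GENCODE vM21 as in the table, and the positions below are those of the table.

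RNA was sequenced from prefrontal cortex of 24 male BALB/C mice aged 11 weeks, 6 in each of 4 groups. Control mice received no drug and no bacterium (only PBS, by the study's methods), dul mice received duloxetine, a serotonin and noradrenaline reuptake inhibitor, by daily intraperitoneal injection, Rum mice received the gut bacterium Ruminococcus flavefaciens by gavage, daily at first and then 2 times per week, and dul+Rum mice received both. All groups shared strain, sex and age, and the tissue was bulk, so that fewer cells of a type and less RNA per cell cannot be told apart. Reads recovered from the normalized counts ranged from 12811413 to 15607343 per mouse.

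Some libraries stood apart. Rum mouse 9_3 had the lowest mean level of the 37 entries of all 24 mice and the largest share of normalized counts from genes whose longest transcript is under 1000 bases, 5.06%, against 3.13% to 3.31% in control mice. Rum mouse 8_4 had a summed level of 9 striatal marker genes of 8278 normalized counts and dul+Rum mouse 11_4 of 5176, against 2988 to 3843 in control mice. For Rum against control, the counts of members and of the further gene lists are therefore also given without mouse 9_3, and without mice 9_3, 8_4 and 11_4 together, a choice made after the data were seen.

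Per kb of longest transcript, the 5 most abundant members were scaffolds, while levels within a family varied widely. Dlg4, which encodes PSD-95, came first at a mean of 2047 normalized counts per kb over the 24 mice, followed by Dlgap3 at 1549, Dlgap1 at 1416, Shank1 at 1406 and Homer1 at 1313. Among surface proteins, Nrxn2 was highest at 1179 per kb, then Nlgn2 at 824 and Cntnap1 at 749. Homer2 had 115, Csmd1 104, Cntnap5a 46.9, Csmd3 38.1, Lrrtm4 36.0, Homer3 20.6 and Cntnap5c 15.2 per kb. The members together held 0.845% of all normalized counts, and none was at 0 in any mouse.

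**Figure D1:**
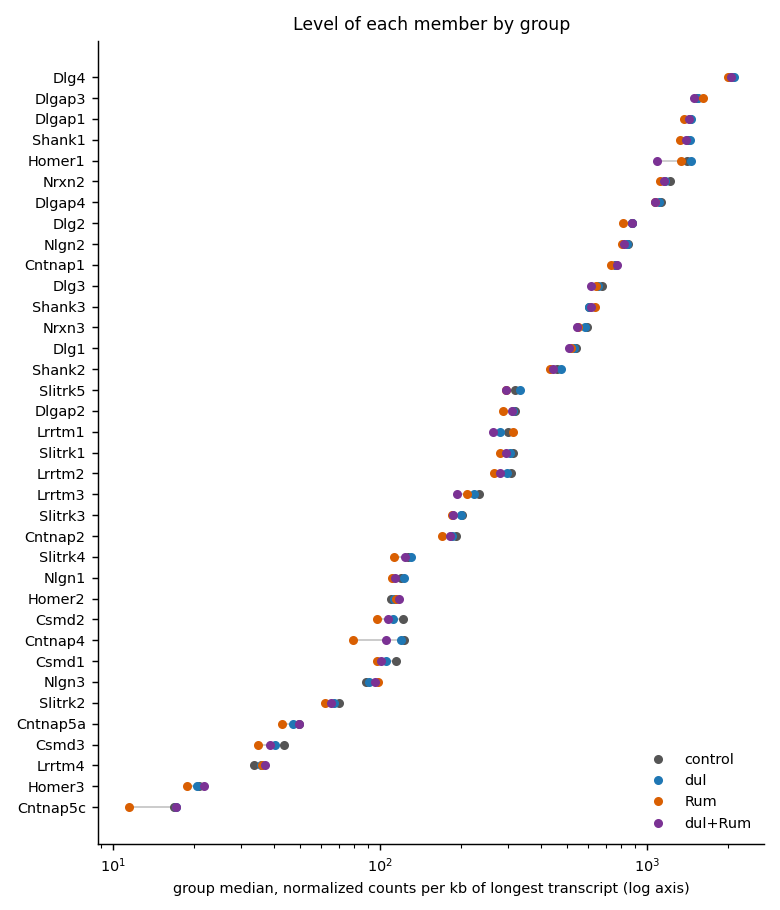
Group medians (n = 6 mice each) of 36 table entries as normalized counts per kb of longest transcript, on a log axis, ordered by the mean over all mice; the Dlg2 processed transcript has no length and is left out. Levels span from Dlg4 at 2047 to Cntnap5c at 15.2 per kb, and the groups lie close together for most genes.

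In Rum mice most members had lower means than in control, and those past an unadjusted threshold were mostly surface protein genes. On log2(normalized count + 1), 31 of 37 entries had a lower mean in Rum mice, and 15 were lower and 1 higher at an unadjusted limma p under 0.05. The background was 10.8% of all tested genes lower and 8.86% higher at that threshold. The median log2 fold change was −0.11 over the members and 0.00 over all tested genes. None of the 37 passed an adjusted p of 0.05 in limma (0.0267% of tested genes did) or in edgeR's quasi-likelihood test, whereas DESeq2 on the recovered reads called 7, all lower: Cntnap2, Cntnap4, Cntnap5a, Csmd1, Csmd2, Csmd3 and Nrxn3. DESeq2 gave Cntnap5c no adjusted p, its mean being low. DESeq2 called 3.26% of all tested genes in either direction in the same comparison. Limma called 5 members when mouse 8_3 (427 genes called in all) or 9_1 (239) was left out, and 8 without 9_2 (616).

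**Figure D2:**
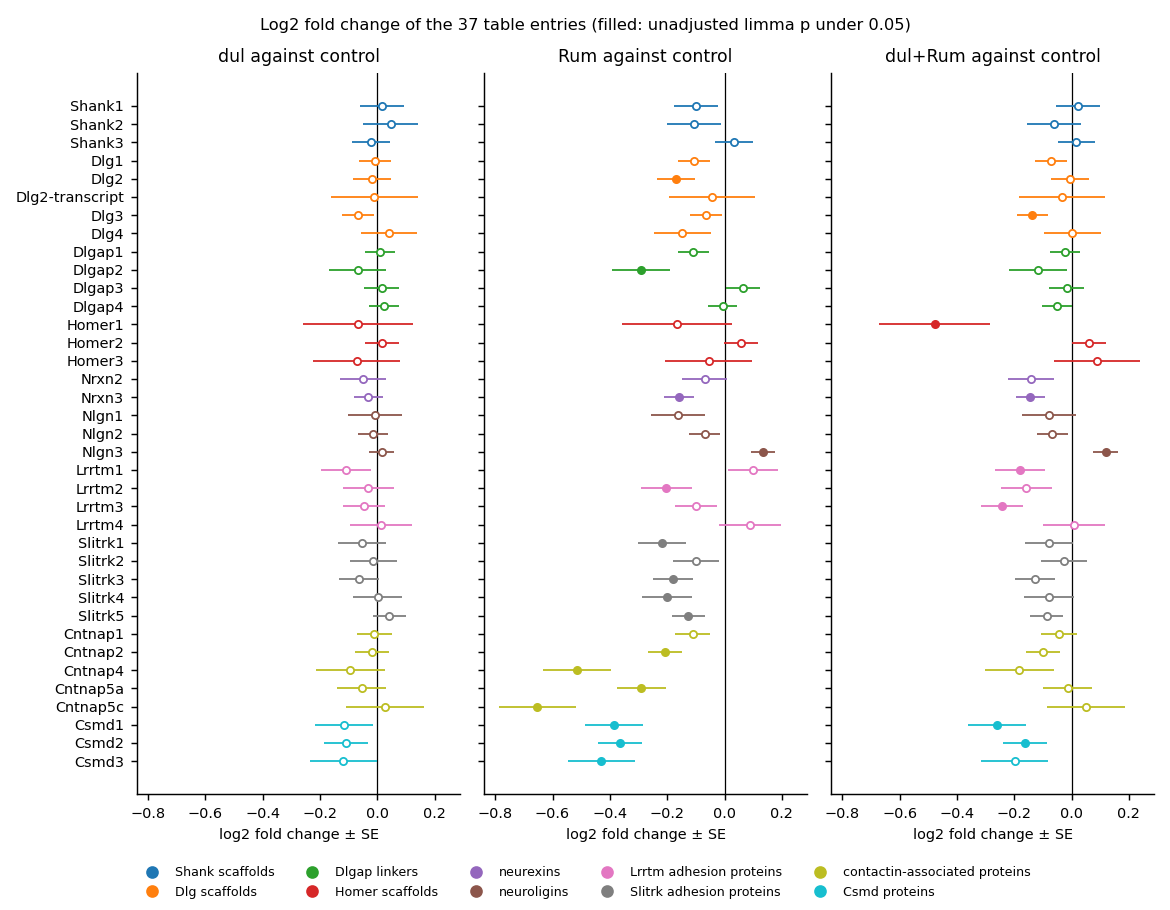
Log2 fold change (x axis, log2 of normalized count + 1, bars ± SE) of each of the 37 entries in dul, Rum and dul+Rum mice against the same 6 control mice, coloured by family and filled where the unadjusted limma p is under 0.05. In Rum mice 15 entries are filled on the lower side and Nlgn3 on the higher side, while no entry is filled in dul mice.

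Levels of the scaffolds overlapped in Rum and control mice. Of 15 scaffold entries, 2 were lower at an unadjusted p under 0.05 and none higher, and the median log2 fold change was −0.10. These were Dlg2, which encodes PSD-93 (log2 fold change −0.17 ± 0.07 SE, limma adjusted p = 0.163), and Dlgap2 (−0.29 ± 0.10, limma adjusted p = 0.122). The 3 Shank genes lay between −0.11 and 0.03, with a median of −0.10, which was −0.01 without mouse 9_3. Dlg4 was at −0.15 ± 0.10, with 7197 normalized counts in mouse 9_3 and 11938 to 14139 in the other 5 Rum mice; without mouse 9_3 it was at −0.0046, and without the 3 libraries at 0.03. Without mouse 9_3 the median of the scaffold entries was −0.03, and 1 of them was lower at that p (background 6.13%). Without the 3 libraries that stand apart the median was 0.02, on the other side of 0, and none was lower or higher at that p; Dlg2 was then at −0.04 and Dlgap2 at −0.11.

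The 22 entries of surface proteins had 13 lower and 1 higher at an unadjusted p under 0.05, with a median of −0.17. Without mouse 9_3 there were 9 lower and 1 higher (background 6.13% and 5.38%), with a median of −0.13. Without the 3 libraries there were 7 lower and 1 higher (background 4.88% and 4.28%), with a median of −0.08. The mean log2 deviation of these 22 from their means over all mice was between 0.05 and 0.12 in control mice and between −0.34 and 0.01 in Rum mice, so the groups did not overlap. In dul mice it ranged from −0.04 to 0.12 and in dul+Rum mice from −0.16 to 0.09, and both overlapped control. For the 15 scaffold entries the range was −0.02 to 0.08 in control and −0.33 to 0.20 in Rum mice, a wider spread that enclosed the controls. The SD between mice of the mean over all 37 entries was 0.02 in control and 0.15 in Rum mice.

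**Figure D3:**
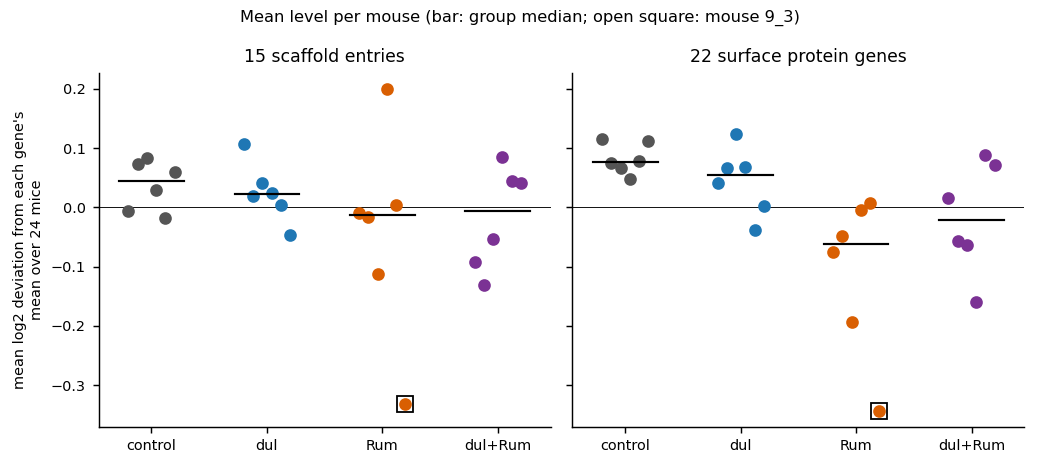
Mean over genes of the log2 deviation from each gene's mean over 24 mice (y axis), for the 15 scaffold entries and the 22 surface protein entries, 1 point per mouse with the group median as a bar. For surface proteins all 6 Rum mice lie at or below 0.01 and all 6 control mice above 0.04; mouse 9_3 (open square) is lowest in both panels.

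All 3 Csmd genes, which encode giant membrane proteins with complement control repeats, were lower in Rum mice. Csmd1 (chromosome 8, 15892537 to 17535586) ranged from 1595 to 1751 normalized counts in control mice (median 1630.4) and from 814 to 1537 in Rum mice (median 1384). Every Rum mouse lay below every control mouse. The log2 fold change was −0.38 ± 0.10 SE (limma adjusted p = 0.0727; exact two-sided permutation p = 0.00216, the smallest that 6 against 6 mice allow). Csmd2 (chromosome 4, 127987857 to 128567656) ranged from 1501 to 1740.0 in control (median 1652) and from 944 to 1473 in Rum mice (median 1318), again without overlap. Its log2 fold change was −0.36 ± 0.08 SE (limma adjusted p = 0.0687; exact permutation p = 0.00216). Csmd3 (chromosome 15, 47580637 to 48792063) ranged from 478 to 607 in control (median 568) and from 252 to 534 in Rum mice (median 453), with 4 of 6 Rum mice below all controls. Its log2 fold change was −0.43 ± 0.12 SE (limma adjusted p = 0.0745; exact permutation p = 0.00649). Without mouse 9_3, the lowest mouse for each of the 3 genes, the log2 fold changes were −0.26 for Csmd1, −0.28 for Csmd2 and −0.29 for Csmd3. Without the 3 libraries they were −0.27, −0.25 and −0.31, and with a trend in transcript length removed −0.18, −0.16 and −0.23.

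Among the 37 entries, the 2 largest log2 fold changes between Rum and control mice were those of the contactin-associated proteins Cntnap5c and Cntnap4. Cntnap5c (chromosome 17, 57769570 to 58410355) ranged from 53.2 to 77.8 normalized counts in control mice (median 66.1) and from 25.4 to 54.2 in Rum mice (median 44.9). One Rum mouse, at 54.2, lay within the control range. The log2 fold change was −0.65 ± 0.13 SE, 36.4% lower (limma adjusted p = 0.0687; exact permutation p = 0.00433). Cntnap5c and Cntnap5a are close paralogs, and at this low level reads shared between them could have been assigned to either. Cntnap4 (chromosome 8, 112570043 to 112882717), a protein of inhibitory interneurons, ranged from 547 to 624 in control (median 596) and from 329 to 582 in Rum mice (median 385). All but 1 Rum mouse lay below every control mouse, with a log2 fold change of −0.51 ± 0.12 SE (limma adjusted p = 0.0727; exact permutation p = 0.00649). Cntnap2 (chromosome 6, 45059357 to 47304213), which clusters potassium channels beside the nodes of Ranvier, ranged from 1842 to 1894 in control (median 1886) and from 1401 to 1820.1 in Rum mice (median 1671). The groups did not overlap, and the log2 fold change was −0.21 ± 0.06 SE (limma adjusted p = 0.0806; exact permutation p = 0.00216). Cntnap5a was at −0.29 ± 0.09 (limma adjusted p = 0.0859), and Cntnap1, a protein of the paranodal junction of myelinated axons, at −0.11 ± 0.06 (limma adjusted p = 0.325). Without mouse 9_3 the values were −0.52 for Cntnap5c, −0.46 for Cntnap4, −0.17 for Cntnap2 and −0.21 for Cntnap5a, and without the 3 libraries −0.54, −0.37, −0.11 and −0.16. With the transcript length trend removed, Cntnap5c was at −0.64 and Cntnap4 at −0.47, but Cntnap2 at −0.05 and Cntnap5a at −0.12, and neither of the last pair reached an unadjusted p of 0.05.

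**Figure D4:**
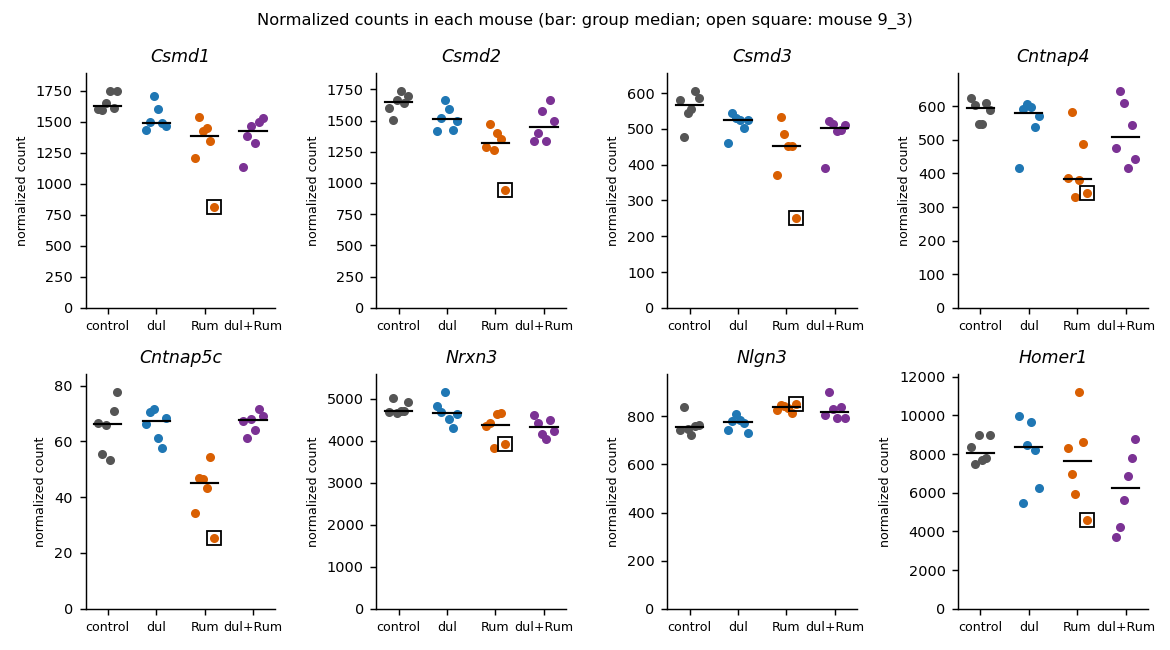
Normalized counts (y axis, from 0) of 8 members in each mouse of the 4 groups, with the group median as a bar and mouse 9_3 as an open square. Csmd1, Csmd2 and Nrxn3 do not overlap between Rum and control mice, Nlgn3 is higher in Rum and dul+Rum mice at the median, and Homer1 spreads from 3715 to 8765 in dul+Rum mice.

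Among trans-synaptic partners, Nrxn3 had lower and Nlgn3 higher means than control in Rum and dul+Rum mice, and neither passed an adjusted p of 0.05 in limma. Nrxn3 (chromosome 12, 88722876 to 90334935) ranged from 4666 to 5013 in control (median 4699), from 3818 to 4646 in Rum mice (median 4373) and from 4046 to 4617 in dul+Rum mice (median 4329). Neither treated group overlapped control. The log2 fold changes were −0.16 ± 0.05 SE in Rum (limma adjusted p = 0.103) and −0.14 ± 0.05 in dul+Rum mice (limma adjusted p = 0.174), each with an exact permutation p of 0.00216. In dul+Rum mice that of Nrxn3 shrank to as little as −0.07 over the alternatives other than leaving out single mice. Under quantile normalization it did not reach an unadjusted p of 0.05 there. Nlgn3 (chromosome X, 101299168 to 101325963), the one member higher at an unadjusted p under 0.05, ranged from 722 to 839 in control (median 754) and from 812 to 851 in Rum mice (median 838). Its groups overlapped through a single control mouse at 839, and the log2 fold change was 0.13 ± 0.04 SE (limma adjusted p = 0.0980; exact permutation p = 0.00866). In dul+Rum mice it ranged from 792 to 903 (median 817), which is 0.12 ± 0.04 SE on the log2 scale (limma adjusted p = 0.178), and in dul mice from 732 to 808 (median 776). Without mouse 9_3, Nrxn3 was at −0.13 and Nlgn3 at 0.13 in Rum against control, without the 3 libraries at −0.09 and 0.12, and with the transcript length trend removed at −0.04 and 0.27. Of the other adhesion proteins, 4 of 5 Slitrk genes (Slitrk1, Slitrk3, Slitrk4 and Slitrk5) and Lrrtm2 were lower in Rum mice at an unadjusted p under 0.05, with log2 fold changes from −0.22 to −0.13. Without mouse 9_3, of these 5 genes only Slitrk1 reached that p (−0.19), and without the 3 libraries none of them did, at −0.11 to −0.07. Nrxn2, Nlgn1, Nlgn2, Lrrtm1, Lrrtm3, Lrrtm4 and Slitrk2 did not reach it with all mice.

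Without a single Rum mouse overlapping any control mouse, 4 entries were lower (Csmd1, Csmd2, Cntnap2 and Nrxn3), where 0.835% of all tested genes were so placed. Leaving out mouse 9_3 gave 10 members lower at an unadjusted p under 0.05 and 1 higher (background 6.13% and 5.38%) and a median of −0.08. Leaving out mice 9_3, 8_4 and 11_4 together gave 7 lower and 1 higher (background 4.88% and 4.28%) and a median of −0.04. The 7 were Csmd1, Csmd2, Csmd3, Cntnap2, Cntnap4, Cntnap5a and Cntnap5c, and the one higher was again Nlgn3.

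Several of these genes are among the longest in the mouse genome, and the difference between Rum and control mice went with gene length across the whole table. In length classes set after the data were seen, 12 members span, from first to last base, at least 500 kb, and 9 of those 12 were lower at an unadjusted p under 0.05, with a median log2 fold change of −0.25. Of all 214 tested genes of that length, 47.2% were lower, with a median of −0.17. Among genes under 100 kb, 7.75% of 12721 were lower with a median of 0.02, and 5 of 17 members were lower with a median of −0.10. Between 100 and 500 kb, 25.7% of 2039 genes and 1 of 8 members, Cntnap4, were lower. Without mouse 9_3, 8 of the 12 longest members were lower with a median of −0.17, beside 32.7% of all genes of that length with a median of −0.11. Under 100 kb, 1 of the 17 members was then lower, with a median of −0.05, beside 4.245% of all genes of that length. Between 100 and 500 kb it was still 1 of 8, beside 15.1% of all genes. Without the 3 libraries, 6 of the 12 were lower with a median of −0.11, beside 16.8% of all genes of that length with a median of −0.08, and none of the 17 was lower, with a median of −0.01. A trend in the length of the longest transcript (exons only), not in the span of the gene, was also removed from each library. Then 7 members were lower and 3 higher at that p (background 5.33% and 5.7%), with a median of −0.05. Lower were Csmd1, Csmd2, Csmd3, Cntnap4, Cntnap5c, Dlgap2 and Slitrk3, and higher were Nlgn3, Shank3 and Homer2. The share of counts from genes with transcripts under 1000 bases had a median of 3.21% in control, 3.63% in dul, 3.62% in Rum and 3.94% in dul+Rum mice. The share from mitochondrial genes had medians of 4.28%, 4.94%, 4.60% and 5.32% in the same order. The part of these shares in the result was not tested.

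**Figure D5:**
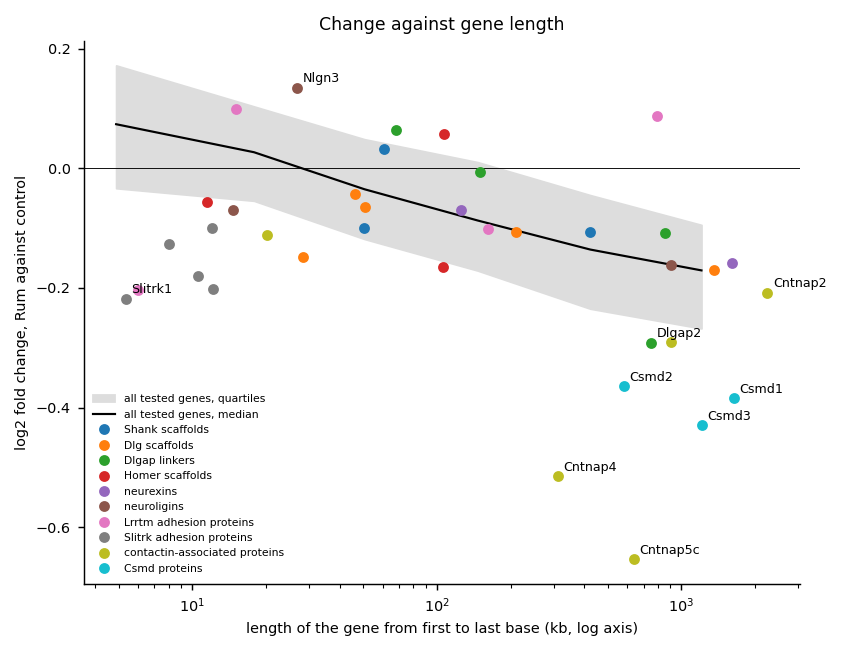
Log2 fold change of Rum against control mice (y axis) against the length of the gene from first to last base (x axis, kb, log scale), for the members by family, with the median (line) and quartiles (grey) of all tested genes in 6 length classes. The median of all genes falls from 0.07 below 10 kb to −0.17 at 1000 kb or more, and the Csmd genes, Cntnap4 and Cntnap5c lie below the quartiles of genes of their length.

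No gene of the marker lists for brain cell types was called at an adjusted p of 0.05 by limma in Rum or dul+Rum mice against control. The summed level of 8 microglial markers had a median of 3847 normalized counts in control, 4399 in dul, 4296 in Rum and 4461 in dul+Rum mice. Of these 8, 5 were higher in Rum and 6 in dul+Rum mice at an unadjusted p under 0.05. Csf1r was the most abundant of them, at a mean of 1414. Pan-neuronal markers, of which Snap25 was the most abundant, had a median sum of 113815 in control and 114010.0 in Rum mice, and excitatory markers, led by Slc17a7, 36482 and 35765. Of 8 pan-neuronal markers 2 were lower and 1 higher in Rum mice at that p, and of 7 excitatory markers 1 was lower and none higher. In the Rum mice with the lowest member means, 9_3 and 8_4, the pan-neuronal sums were 101427 and 97667, below every control mouse (112810.0 to 119294), and the excitatory sums 32650.2 and 30180 (control 34137 to 37837). Their astrocyte sums were 23188 and 23784 and their microglial sums 4920 and 4595, above every control mouse (at most 21394.5 and 4029). Microglial sums were also above every control mouse in Rum mice 7_2 (4283), 8_3 (4085) and 9_1 (4309), but not in 9_2 (3933). Inhibitory markers, led by Gad1, had 10825 in control and 11720.5 in Rum mice, and 3 of 8 were higher and none lower at that p. Astrocyte markers (Aldoc the most abundant) stood at 19033 and 20666, endothelial markers (Flt1) at 2989 and 3170, and oligodendrocyte precursor markers (Pdgfra) at 1864.5 and 1919. Oligodendrocyte markers, led by Mbp, ranged from 14388 to 39006 in control and from 12524 to 46882 in Rum mice. Striatal markers, led by Pde10a, had medians of 3073 and 2878. Of 7 choroid plexus markers, Folr1, Kcnj13, Otx2 and Aqp1 have no entry in the table, and the other 3, led by Kl, summed to a median of 50.3 in control and 85.5 in Rum mice, with 791 in mouse 8_4. The part of these markers in the members' values was not tested.

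In mice given duloxetine alone, no member differed from control at an unadjusted limma p under 0.05, where 1.63% of tested genes were lower and 2.2% higher. None was called by limma (0% of tested genes), DESeq2 or edgeR, and the median was −0.02. All 3 Csmd genes had lower means than control, at log2 fold changes from −0.12 to −0.11. With only dul and control mice fitted, 2 members were lower at an unadjusted p under 0.05 in limma (556 genes lower and 496 higher). DESeq2 with only those groups also had 2, each lower (478 and 373 genes). With all mice fitted, the smallest limma p belonged to Csmd2, which ranged from 1419 to 1667 in dul mice (median 1511) and overlapped control. Its log2 fold change was −0.11 with a 95% interval from −0.27 to 0.05 (limma adjusted p = 1.00; exact permutation p = 0.0476).

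Mice given both treatments had 7 members lower and 1 higher than control at an unadjusted p under 0.05, with a background of 8.73% lower and 8.08% higher. None passed an adjusted p of 0.05 in limma (0.1% of tested genes did), DESeq2 or edgeR, and the median was −0.07. Lower were Dlg3, Homer1, Nrxn3, Lrrtm1, Lrrtm3, Csmd1 and Csmd2, and Nlgn3 was higher. With only those groups fitted, limma called Csmd1, beside 196 of 14974 genes. DESeq2 then called Csmd1 and Nrxn3, beside 709 of 14973 genes, and each member called was lower. The 8 members at an unadjusted p under 0.05 became 4 without mouse 11_3, with a median of −0.04, and 5 without 10_2 or 12_2. Under quantile normalization they became 4, with a median of −0.03. Of the 14974 tested genes, 966 were then lower and 957 higher without 11_3, and 1169 and 1156 without 10_2. Without 12_2 these were 916 and 888, and under quantile normalization 989 and 1028. The sums of cell type markers varied among these mice. The 3 dul+Rum mice with the lowest member means, 11_3, 11_4 and 12_2, had excitatory marker sums of 31588 to 32440.5 normalized counts, below every control mouse, and astrocyte sums of 23190.5 to 26251 and microglial sums of 4457 to 5477, above every control mouse (at most 21394.5 and 4029). Microglial sums were also above every control mouse in mice 10_2 (4464) and 12_3 (4105), but not in 12_4 (3629). In all 6 dul+Rum mice against control, excitatory markers had a median log2 fold change of −0.10 with none of 7 past an unadjusted p of 0.05, and astrocyte markers one of 0.16 with 3 of 7 higher at that p (median sums 21770.5 against 19033). Of 7 endothelial markers 2 were higher, with a median of 0.18, and pan-neuronal markers had a median of −0.02 with none past that p. The part of these markers in the members' values was not tested.

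Among the members lower with both treatments, Csmd1 ranged from 1133 to 1528 in dul+Rum mice (median 1428), below every control mouse, with a log2 fold change of −0.26 ± 0.10 SE (limma adjusted p = 0.210; exact permutation p = 0.00216). It passed the threshold when mouse 9_3, which is not in this comparison but enters the shared estimate of spread, was left out (limma adjusted p = 0.0491). Lrrtm3 (chromosome 10, 63928472 to 64090277), a dendritic ligand of neurexins, had the smallest p of the members. It ranged from 879 to 946 in control (median 914), from 776 to 963 in Rum (median 820.4) and from 642 to 942 in dul+Rum mice (median 754). Of the dul+Rum mice, 4 lay below every control mouse, and the log2 fold change was −0.24 ± 0.07 SE (limma adjusted p = 0.125; exact permutation p = 0.0346). Dlg3 (chromosome X, 100767722 to 100818410), which encodes SAP102, ranged from 3241 to 3459 in control (median 3402) and from 2783 to 3395 in dul+Rum mice (median 3087), overlapping control. Its log2 fold change was −0.14 ± 0.06 SE (limma adjusted p = 0.227; exact permutation p = 0.0195). Over the alternatives other than leaving out single mice, that of Dlg3 shrank to as little as −0.07. Under quantile normalization Dlg3 did not reach an unadjusted p of 0.05.

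Homer1 was the most variable abundant scaffold. It ranged from 7485 to 8987 normalized counts in control (median 8082), from 5459 to 9967 in dul (median 8361), from 4569 to 11236 in Rum (median 7640.2) and from 3715 to 8765 in dul+Rum mice (median 6238). In dul+Rum mice 4 lay below all controls and the other 2 within the control range. The log2 fold change was −0.48 ± 0.19 SE (limma adjusted p = 0.222; exact permutation p = 0.0433), with a 95% interval from −0.87 to −0.08. Homer1 (chromosome 13, 93299635 to 93405129) gives rise to long scaffold forms and to the short activity-induced Homer1a, which the single table entry does not separate. Because transcription of Homer1 is known to follow neuronal activity, its promoter is shown. It was searched for TGACG, the half-site of the cyclic AMP response element, on both strands, as were the other promoter windows. The 250 bases before a RefSeq start, chr13:93303507-93303756 on the plus strand of GRCm38.p6, hold TGACG 3 times (capitals). They lie inside the gene position given above and overlap no annotated exon of Homer1:

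Homer1: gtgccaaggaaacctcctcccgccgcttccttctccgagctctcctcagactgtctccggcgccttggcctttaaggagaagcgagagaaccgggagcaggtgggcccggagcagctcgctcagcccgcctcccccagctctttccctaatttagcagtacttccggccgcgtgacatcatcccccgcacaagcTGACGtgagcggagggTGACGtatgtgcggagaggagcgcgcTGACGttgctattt

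At least 1 such match was in 17.8% of all 32851 promoter windows of this length and in 4 of the 39 windows found for 22 of the 36 symbols. Matches of 3 or more were in 0.688% of all windows and in 1 of the 39, that of Homer1. A match of 5 letters is a description of the sequence.

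Dul+Rum mice were then set against each single treatment; both comparisons share the dul+Rum mice. Against dul mice, 4 members were lower and 1 higher at an unadjusted p under 0.05 (background 2.88% lower and 3.02% higher), and none was called by limma (0% of tested genes), DESeq2 or edgeR. These 5 members became 2 when any 1 of mice 5_1, 5_4, 11_3, 11_4 or 12_2 was left out. Over those leave-outs, 305 to 421 of the 14974 tested genes were lower and 315 to 444 higher, against 431 and 452 with all mice. The members became 3 without 6_1 (313 genes lower and 380 higher) or 6_3 (445 and 494). Under quantile normalization they became 2 (421 and 443). With all mice Lrrtm3 had the smallest p, at a log2 fold change of −0.20 ± 0.07 SE (limma adjusted p = 0.816; exact permutation p = 0.0844), and its dul values from 829 to 937 overlapped those of dul+Rum mice. Against Rum mice, 1 member was lower and 5 higher (background 9.9% lower and 9.76% higher), with a median of 0.05. Without mouse 9_3 there were 3 lower and 3 higher (background 8.03% and 8.12%), with a median of 0.0043, and without the 3 libraries 4 lower and 2 higher (background 9.51% and 9.11%), with a median of −0.01. The 6 members at that p became 11 without 9_1, 10 without 12_2, and 10 under quantile normalization (1 lower and 9 higher). Of all tested genes, 1380 were then lower and 1403 higher without 9_1, 1362 and 1374 without 12_2, and 1409 and 1442 under quantile normalization. With all mice 1, Cntnap5c, passed an adjusted p of 0.05, where 2.23% of tested genes did, and it rose. Its levels ran from 61.0 to 71.6 in dul+Rum mice (median 67.7) and from 57.5 to 71.5 in dul mice (median 67.2), so that both lay within the control range. Every dul+Rum mouse lay above every Rum mouse. The log2 fold change was 0.70 ± 0.13 SE, 62.8% higher (limma adjusted p = 0.0101; DESeq2 adjusted p = 0.000972; edgeR adjusted p = 0.0114; exact permutation p = 0.00216). It was 0.57 without mouse 9_3 (limma adjusted p = 0.0238). With only those groups in the fit, limma's adjusted p was 0.0967 at the same fold change, and limma called no gene of the table. DESeq2 then still called Cntnap5c, beside 222 of 14972 genes. With all mice the other 4 higher were Dlg2, Cntnap4, Cntnap5a and Csmd2, at limma adjusted p from 0.0792 to 0.177, and Lrrtm1 was lower (−0.28, limma adjusted p = 0.0803).

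Averaged over the presence of duloxetine, R. flavefaciens gave 16 members lower and 1 higher at an unadjusted p under 0.05 (background 10.4% lower and 7.68% higher) with a median of −0.09. None was called by limma (0.0267% of tested genes) or edgeR, and DESeq2 called 7, beside 2.95% of tested genes. The 7 were 1 neurexin, 1 neuroligin, 2 Cntnap and 3 Csmd genes. The only neuroligin at an unadjusted limma p under 0.05 was Nlgn3, which was higher. Without mouse 9_3, 12 were lower and 1 higher with a median of −0.06, beside 1199 lower and 857 higher of the 14974 tested genes. Without the 3 libraries, 9 were lower and 1 higher with a median of −0.03, beside 846 lower and 651 higher of all tested genes. With all mice Nlgn3 had the smallest p, with a log2 fold change of 0.12 ± 0.03 SE (limma adjusted p = 0.0983). Averaged over R. flavefaciens, duloxetine gave no call in limma (1.03% of tested genes) or edgeR, and 1 member lower and 1 higher at an unadjusted p under 0.05 (background 7.49% and 7.44%). DESeq2 called 1, where it called 2.14% of tested genes, which was Cntnap5c, at 0.36 ± 0.10 in limma (limma adjusted p = 0.0561). In the interaction of the treatments 5 members, Cntnap4, Cntnap5a, Cntnap5c, Csmd2 and Csmd3, were higher and none lower at an unadjusted p under 0.05 (background 3.86% higher and 3.67% lower), and none was called by limma (0% of tested genes), DESeq2 or edgeR. The members' median of 0.08 was 0.02 without mouse 9_3. Without the 3 libraries, Cntnap5a, Cntnap5c and Csmd2 were higher at that p and the median was −0.01. Of the 14974 tested genes, 637 were then higher and 427 lower at that p. With the transcript length trend removed, Cntnap4, Cntnap5c and Csmd2 were higher and the median was −0.02. Of 14958 tested genes, 427 were then higher and 484 lower. For Cntnap5c, which had the smallest p, the interaction was 0.68 ± 0.19 SE (limma adjusted p = 0.639).

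Other genes of the same structures were set beside the members. These lists were not split by gene length. Over all tested genes, the share lower in Rum mice was 7.75% under 100 kb and 47.2% at 500 kb or more. The part of gene length in the counts of these lists was not tested. Of 40 further proteins of the postsynaptic density, 17 were lower and 1 higher in Rum than in control mice at an unadjusted p under 0.05, with a median of −0.09 and no limma call, against the 10.8% lower and 8.86% higher of all tested genes. The lower genes with the smallest p were Tanc2 (−0.35 ± 0.09 SE), Lrrc7, which encodes densin-180 (−0.43 ± 0.11), and Frmpd4 (−0.29 ± 0.09), at limma adjusted p from 0.0727 to 0.0829. Without mouse 9_3, 7 of the 40 were lower and none higher (background 6.13% and 5.38%), with a median of −0.05. Without the 3 libraries 4 were lower and 1 higher (background 4.88% and 4.28%), with a median of −0.02. In these settings, in that order, Tanc2 was at −0.25 and −0.18, Lrrc7 at −0.30 and −0.23, and Frmpd4 at −0.21 and −0.14. On the higher side were Dynll1, a dynein light chain (0.14 ± 0.05, limma adjusted p = 0.155), Lin7b (0.13 ± 0.07) and Baiap2 (0.08 ± 0.05). Of 68 other synaptic adhesion genes listed, 67 were tested, and 24 were lower and none higher, with a median of −0.11 and no limma call. Tenm3 (−0.52 ± 0.11 SE, limma adjusted p = 0.0687) and Tenm1 (−0.63 ± 0.15), teneurins that bind latrophilins across the synapse, and the sidekick Sdk2 (−0.48 ± 0.12) had the smallest p. Tenm3 had a mean of 1559 ± 57.7 (SD, n = 6) normalized counts in control and 1109 ± 251 (SD, n = 6) in Rum mice. Without mouse 9_3, 19 of the 67 were lower and none higher (background 6.13% and 5.38%), with a median of −0.07. Without the 3 libraries 7 were lower and none higher (background 4.88% and 4.28%), with a median of −0.05. In these settings, in that order, Tenm3 was at −0.41 and −0.37, Tenm1 at −0.45 and −0.35, and Sdk2 at −0.36 and −0.34. The higher ones with the smallest p were Cadm4, Ntng2 and Nectin1, at log2 fold changes from 0.08 to 0.09, and none reached an unadjusted p of 0.05. In dul+Rum mice 7 of the 40 and 14 of the 67 were lower than in control and none higher, where 8.73% of all tested genes were lower, and in dul mice 1 of each list was lower, where 1.63% were.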

How the data were processed

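The authors deposited 1 table of normalized counts for 24 libraries (poly(A) RNA, TopHat2 2.1.0 and Bowtie2 2.2.6, DESeq2 1.18.1 per the labels). The labels' processing notes name mm9, but 14253 of 15456 entries lie at their GRCm38 position in GENCODE vM21. The deposited values are signal values, counts divided by a size factor per mouse. They were whole multiples of 1 read for 99.997% of non-zero values (tolerance 0.0051), and these recovered reads (12811413 to 15607343 per mouse) went into DESeq2 1.42.0 and edgeR 4.0.16 as alternatives. The main test was limma 3.58.1 (R 4.3.3) with a trended prior on log2(value + 1), entries of mean 10 or more, 4 groups in 1 fit, and Benjamini-Hochberg adjustment over 14974 genes per comparison. Fold changes are on that log2 scale and understate those of low genes. Single members were also compared by an exact two-sided permutation test over mice. Samples were grouped by their labels, and n counts mice. Alternatives were other pseudocounts, filters, scalings and tools, removal of a loess trend (span 0.3) in transcript length, and leaving out mice. Limma was tested on simulated data with known changes. Full values are given for members called in a comparison, for the 6 with the smallest p in Rum and in dul+Rum against control, for the smallest p in each other comparison, and for 3 lower and 3 higher genes of each further list. Members and lists were chosen with earlier results of these data known. Promoter sequence is from RefSeq. Python 3.11.15 with scipy 1.17.1 was used.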

Additional observations from a re-analysis of the deposited data

Results flagged for a closer look

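In groups of 6 mice, the highest or lowest mouse stood apart from the other 5 by more than Dixon's 95% criterion for 7 of 148 combinations of member and group, where chance gives about 7.4. In the Rum group, Dlg4 was at 7197 normalized counts in mouse 9_3 and between 11938 and 14139 in the others, and Homer2 was at 1595 in mouse 9_1 against 1115 to 1265. In control mouse 2_1, Nlgn3 was at 839 against 722 to 763. In dul+Rum mice, Lrrtm4 was at 114 in mouse 12_2 against 158 to 177, Cntnap1 at 3385 in mouse 11_4 against 4082 to 4279, and Csmd3 at 389.7 in mouse 10_2 against 494 to 522. In dul mouse 5_1, Cntnap4 was at 417 against 538 to 608. No interaction of the treatments passed an adjusted p of 0.05 in limma.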

How the results depend on the processing

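Every setting gave negative medians for R. flavefaciens, both treatments or duloxetine against control. For duloxetine the median ranged only from −0.028 to −0.00097, close to 0. The pooled SD between mice of the mean of the 37 entries was 0.085. Of 18 single-member fold changes followed, none changed sign. Cntnap2 in Rum against control ranged down to −0.05 with the trend in transcript length, below called the length trend, removed. Cntnap5c in dul+Rum against Rum mice lost its call in limma, at the same fold change, with only those groups fitted, and kept it in DESeq2. The cause was not tested for any difference below. Members called in Rum against control were 0 in limma (4 genes called in the whole table), 7 in DESeq2 (488 genes), 2 in DESeq2 with only those groups (57) and 5 (221) with mice of the same first label number as a replicate block (correlation −0.0451; the numbers do not pair mice across groups), and 0 to 8 over leave-outs (5 without mouse 8_3 or 9_1, where 427 and 239 genes were called, and 8 without 9_2, where 616 were). Dul+Rum against control (15 genes called) gave 1 in limma with only those groups (196), 2 in DESeq2 likewise (709), 1 without the 3 libraries (126), and 0 to 1 over leave-outs (1 without 9_3, where 123 genes were called). Dul+Rum against Rum (334 genes) gave 0 in limma with only those groups (0) but 1 in DESeq2 likewise (222). It gave 2 in DESeq2 with all groups fitted (624), and 1 to 2 over leave-outs (2 without 8_3, where 348 genes were called). The R. flavefaciens average (4 genes) gave 7 in DESeq2 (441) and 0 to 3 over leave-outs (3 without 8_3, where 135 genes were called). The duloxetine average (154 genes) gave 1 under 75th percentile rescaling (144), the replicate block (255) or DESeq2 (321). Over leave-outs it gave 0 to 1 (1 without 8_4 or 9_2, where 216 and 145 genes were called). At an unadjusted p under 0.05, Rum against control had 10 members with the length trend removed and 8 without the 3 libraries (11 to 20 over leave-outs). Dul against control had 2, each lower, with only those groups, in limma (556 genes lower and 496 higher) or DESeq2 (478 and 373). Dul+Rum against control had 4 under quantile normalization and 4 to 10 over leave-outs (5 without 10_2 or 12_2, 4 without 11_3). Dul+Rum against dul had 2 under quantile normalization. It had 3 with the length trend removed (588 genes lower and 438 higher) or in DESeq2 with only those groups (463 and 463). Over leave-outs it had 2 to 6 (2 without 5_1, 5_4, 11_3, 11_4 or 12_2, 3 without 6_1 or 6_3). Dul+Rum against Rum had 10 under quantile normalization and 6 to 11 over leave-outs (11 without 9_1, 10 without 12_2). The R. flavefaciens average had 10 without the 3 libraries. The duloxetine average had 4 under 75th percentile rescaling (655 genes lower and 1452 higher) or with the length trend removed (1894 and 854). It had 5 without the 3 libraries (1459 and 1327), and 2 to 4 over leave-outs (4 without 9_1, 1031 and 1031, or 12_4, 1267 and 1237). The interaction had 3 with the length trend removed and 3 without the 3 libraries, where its median was −0.0191 and −0.0144 against 0.0768; without mouse 9_3 alone it was 0.0213. The medians of dul+Rum against Rum (−0.01 and −0.01) and of the duloxetine average (−0.02 and −0.01) were also negative under these settings, and the latter was −0.0085 without mouse 9_3. At a depth of 12811413 to 15607343 reads, Cntnap5c, Homer3 and the Dlg2 transcript had the lowest means of the members, under 60 normalized counts. How far depth limits each member was not tested.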
